A study of Mus musculus with 12 samples.

Results

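Keratins and genes of duct epithelium were examined in MYCN-driven neuroendocrine tumors of the pancreas and of the pituitary gland. The set holds 10 genes, namely the keratin genes Krt7, Krt8, Krt18, Krt19 and Krt20 together with Cftr, Slc4a4, Tff2, Spp1 and Epcam. Its members were chosen by symbol, taking every probe set that the array annotation gives to 1 of these symbols alone. In all, 17 of the 45037 probe sets tested belong to the set, and they represent 9 of the 10 genes, because no probe set carries the symbol Spp1 in the annotation used. Untreated tumors came from LSL-MYCN;hGFAP-Cre mice, in which Cre recombinase under the human GFAP promoter removes a stop cassette in front of MYCN and a luciferase gene, so that both are switched on in GFAP-positive cells. All animals carried both transgenes on a mixed genetic background of several strains. The 9 pancreatic tumors are numbered 1 to 5 and 9 to 12, and the 3 pituitary tumors, which the labels assign to the brain, are numbered 6, 7 and 8. Normal tissue was not analysed here, and the labels give no age for the mice behind each array. A mouse of this line can carry tumors at both sites, and since no label ties a tumor to an animal, the p-values measure only the spread between these samples.

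Keratins are the intermediate filaments of epithelial cells and are built from pairs of a type II chain, such as those encoded by Krt7 and Krt8, and a type I chain, such as those encoded by Krt18, Krt19 and Krt20. The Krt8 and Krt18 pair is found in most simple epithelia, including acinar and islet cells of the pancreas, whereas Krt7 and Krt19 mark duct cells and Krt20 is best known from intestinal and urothelial cells. Duct cells secrete bicarbonate with the help of the chloride channel encoded by Cftr and of the sodium bicarbonate cotransporter encoded by Slc4a4, the trefoil peptide encoded by Tff2 belongs to mucus, Spp1 encodes osteopontin, and Epcam encodes a cell adhesion molecule of most epithelia.

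Values are log2 signals, so that a difference of 1 stands for a doubling, and differences are pancreatic minus pituitary tumors. The median signal of an array, 5.45 to 5.69 among pancreatic and 5.53 to 5.61 among pituitary tumors, served as a landmark for low signals because no detection calls were used. Levels of different probe sets were not set against each other. Pancreatic tumor 2 stood apart from the other pancreatic tumors, with which it correlated at r = 0.803 to 0.902 over all probe sets, against r = 0.872 to 0.985 among the other 8. Its summed signal of 8 measured hepatocyte genes was 17.14 on the log2 scale, against 9.74 to 14.90 in the other 8 pancreatic tumors while pituitary tumors had 8.23 to 8.92. The tissue labels were borne out by hormone transcripts. Gcg (glucagon) was at 8.85 to 14.41 in pancreatic tumors and at 5.34 to 6.38 in pituitary tumors, and Gh (growth hormone) was at 5.64 to 6.27 in pancreatic tumors and at 14.65 to 14.87 in pituitary tumors. In limma's test described below, 4 of 9 islet and neuroendocrine genes were higher in pancreatic tumors and 0 lower, and 0 of 9 anterior pituitary genes were higher and 8 lower. Of 11 macrophage and leukocyte genes 0 were higher and 0 lower (1 and 0 at an unadjusted p under 0.05), and of 9 stroma and endothelium genes 0 were higher and 1 lower.

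Among the 9 genes, 2 were higher in pancreatic tumors in limma's test (adjusted p under 0.05), Krt7 and Krt8, 0 were lower and 7 did not pass. Over all 18193 genes represented on the array, 1.61% were higher and 4.5% were lower by the same test, 6.11% in either direction. Counted by probe set, 4 of 17 were higher and 0 lower, against 1.18% higher, 3.45% lower and 4.63% in either direction of all probe sets. Signals of the 2 tumor groups did not overlap for 5 member probe sets, all higher in pancreatic tumors, and for 0 lower ones, against 3.86% of all probe sets without overlap on the higher side, 4.02% on the lower side and 7.88% on either. The median difference was 0.49 over the 9 genes and 0.03 over all genes represented. At an unadjusted p under 0.05, limma gave 4 genes higher and 0 lower, which adds Krt18 and Tff2.

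**Figure D1:**
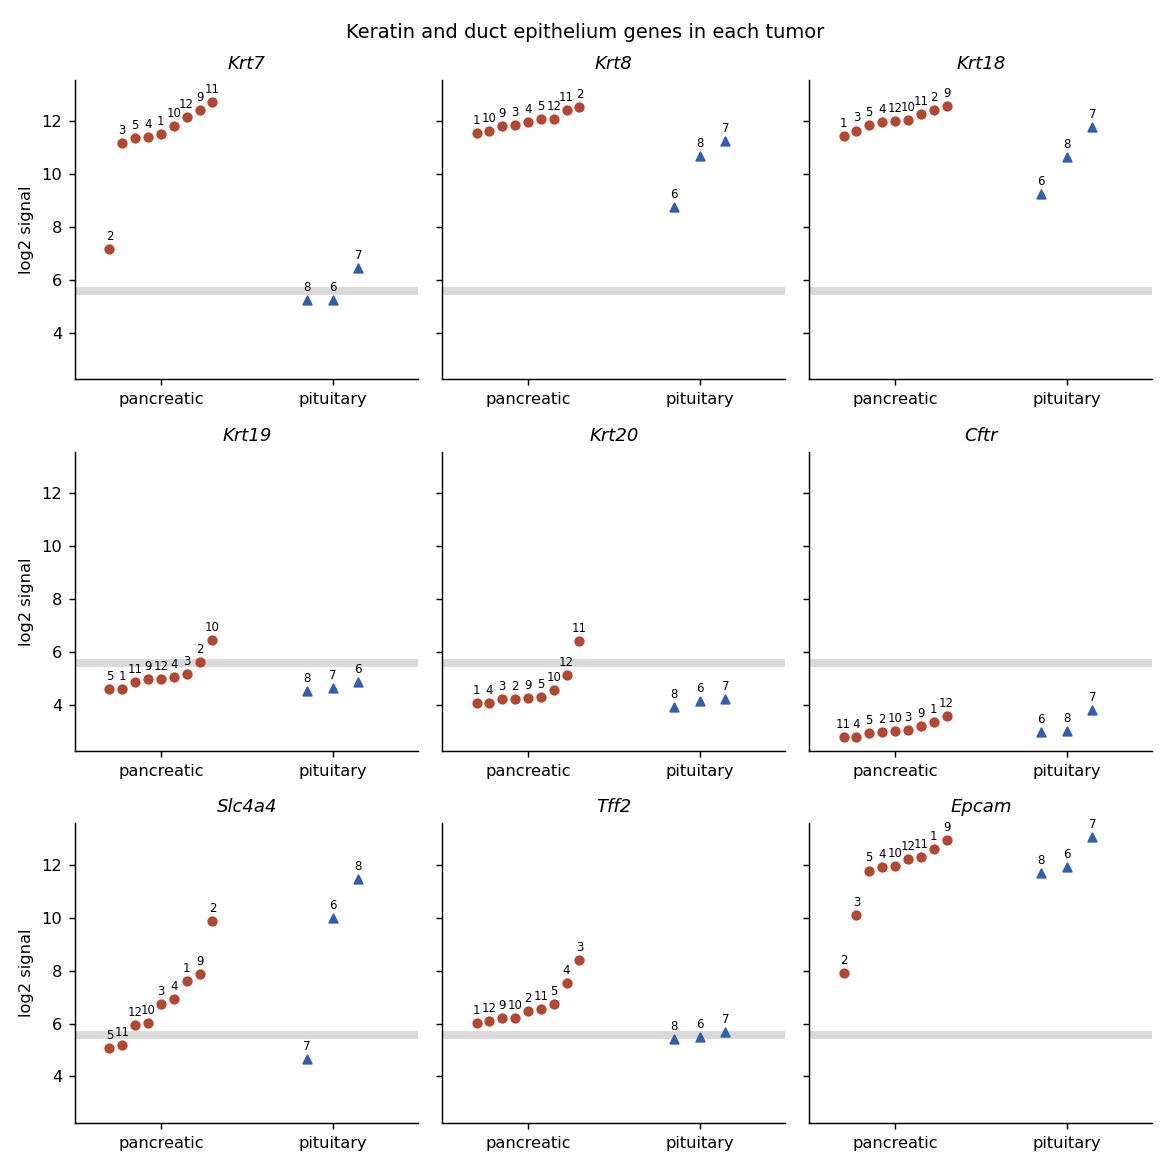
Log2 signal of the 9 member genes in each tumor, with 1 probe set per gene, pancreatic tumors as circles and pituitary tumors as triangles, each numbered by tumor and sorted by signal. The grey band spans the median signals of the 12 arrays, and Krt7 shows 8 pancreatic tumors above 11, pancreatic tumor 2 at 7.17 and the pituitary tumors between 5.24 and 6.46.

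Regulatory sequence of Krt7, Krt8, Krt18 and Epcam is shown first. Krt7 and Krt8 are the 2 genes that passed the test, Krt18 encodes the partner chain of Krt8 and did not pass, and Krt7 and Epcam were lowest, among pancreatic tumors, in tumor 2. Each line holds the 250 bases upstream of the RefSeq start in mouse build GRCm38.p6, printed 5′ to 3′ along the gene, with matches to a searched motif in capitals. RefSeq promoters were found for 8 of the 10 genes.
Krt7 (chr15:101412153-101412402, plus strand): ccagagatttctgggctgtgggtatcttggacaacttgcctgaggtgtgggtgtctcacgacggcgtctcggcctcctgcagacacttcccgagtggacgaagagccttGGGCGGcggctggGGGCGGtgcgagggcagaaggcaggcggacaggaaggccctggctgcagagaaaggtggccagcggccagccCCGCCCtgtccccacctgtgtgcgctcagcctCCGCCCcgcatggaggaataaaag
Krt8 (chr15:102004343-102004592, minus strand): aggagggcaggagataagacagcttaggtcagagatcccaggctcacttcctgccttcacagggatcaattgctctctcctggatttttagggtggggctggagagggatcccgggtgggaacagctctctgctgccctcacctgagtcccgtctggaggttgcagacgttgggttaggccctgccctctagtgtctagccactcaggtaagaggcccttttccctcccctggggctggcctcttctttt
Krt18 (chr15:102027966-102028215, plus strand): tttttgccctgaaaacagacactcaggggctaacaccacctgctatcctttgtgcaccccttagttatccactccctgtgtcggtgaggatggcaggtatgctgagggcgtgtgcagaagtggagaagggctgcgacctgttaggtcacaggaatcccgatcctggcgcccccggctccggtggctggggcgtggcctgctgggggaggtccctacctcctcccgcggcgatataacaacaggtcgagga
Epcam (chr17:87635729-87635978, plus strand): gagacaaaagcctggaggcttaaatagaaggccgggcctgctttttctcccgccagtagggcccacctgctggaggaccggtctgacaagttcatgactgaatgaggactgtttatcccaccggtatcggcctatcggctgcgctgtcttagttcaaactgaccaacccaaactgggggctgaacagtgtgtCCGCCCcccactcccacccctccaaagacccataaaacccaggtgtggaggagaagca
In all, 4 motifs were searched on both strands. The MYC-type E-box CACGTG, found in 6.02% of 32851 promoter windows of the same length, was present in 0 of these 4 windows. The AP-1 motif TGANTCA (6.75% of windows) and the TATA box TATAAA (12.4%) were likewise present in 0 of them, and no searched motif overlapped another here. The GC box GGGCGG (32.7% of windows) occurred 4 times upstream of Krt7, with the nearest match 24 bases before the start, and 1 time upstream of Epcam, but not upstream of Krt8 or Krt18. The windows of Krt8 and Krt18 lie close together on chromosome 15 on opposite strands, pointing away from each other. Such matches describe letters and not bound sites.

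Krt7, a type II keratin of duct and other simple epithelia, showed the widest separation of the set. Its signal in pancreatic tumors had a minimum of 7.17, a median of 11.52 and a maximum of 12.71, and the 3 pituitary tumors had 5.24, 6.46 and 5.24 in tumors 6, 7 and 8. The groups did not overlap, although pancreatic tumor 2 at 7.17 came within 1 log2 unit of pituitary tumor 7, and the other 8 pancreatic tumors lay between 11.19 and 12.71. Mean signal was 11.30 ± 1.63 in pancreatic tumors (SD, n = 9) and 5.65 ± 0.70 in pituitary tumors (SD, n = 3). The difference was 5.66 (SE 0.91, 95% confidence interval 3.67 to 7.64), or 50.4-fold, with an adjusted p of 0.00404 in limma. Without pancreatic tumor 2 the difference was 6.17 (adjusted p = 3.47e-06). In bulk tumors, fewer cells of a type cannot be told apart from less RNA per cell.

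Neural genes had their highest summed signal in the pituitary tumors with the lowest Krt7. The summed signal of 9 neuron and oligodendrocyte genes was 9.31 to 12.71 in pancreatic tumors, 14.67 and 14.65 in pituitary tumors 6 and 8, in which Krt7 was at or below the array median, and 12.95 in pituitary tumor 7. Of these 9 genes, 0 were higher and 2 lower in pancreatic tumors, or 0 and 8 at an unadjusted p under 0.05 in limma. With pituitary tumors 6 and 8 left out, the Krt7 difference was 4.84 (adjusted p = 0.351 with 1 pituitary tumor remaining, which is assumed to vary like the other tumors). The part of neural tissue in the difference was not tested beyond this.

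Krt8, the type II chain of simple epithelia, was high in every tumor and higher in pancreatic tumors. Its first probe set ranged from 11.57 to 12.54 in pancreatic tumors, with a median of 11.97, and had 8.77, 11.25 and 10.67 in pituitary tumors 6, 7 and 8. The lowest pancreatic tumor lay above the highest pituitary tumor by a small margin, and pituitary tumor 6 was far below the other tumors. Means were 12.00 ± 0.33 in pancreatic tumors (SD, n = 9) and 10.23 ± 1.30 in pituitary tumors (SD, n = 3). This amounts to a difference of 1.77 (SE 0.40, 95% confidence interval 0.89 to 2.65), or 3.40-fold, with an adjusted p of 0.0285 in limma. The other 2 probe sets of Krt8, whose suffix marks probes that may also match related transcripts, gave 1.76 (adjusted p = 0.0338) and 1.58 (adjusted p = 0.0435).

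The Krt8 call rested on single tumors more than that of Krt7. It was lost without pituitary tumor 6 (1.04, adjusted p = 0.085), without pituitary tumor 8 (1.99, adjusted p = 0.0664), without pancreatic tumor 11 (1.71, adjusted p = 0.0501) and without pancreatic tumor 12 (1.76, adjusted p = 0.0529). Without both pituitary tumors 6 and 8, in which the summed signal of the neural genes above was highest, the difference was 0.74. Leaving out pancreatic tumor 2, the highest one, kept the call (1.70, adjusted p = 0.0331).

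Krt18, the type I partner of Krt8, followed a similar order but did not pass the test. Pancreatic tumors had 11.46 to 12.56 with a median of 12.02, and pituitary tumors 6, 7 and 8 had 9.26, 11.79 and 10.64. Pituitary tumor 7 overlapped with the lower pancreatic tumors, whereas pituitary tumors 6 and 8 were below all of them. Mean signal was 12.03 ± 0.35 in pancreatic tumors (SD, n = 9) and 10.56 ± 1.27 in pituitary tumors (SD, n = 3), a difference of 1.47 (SE 0.40, 95% confidence interval 0.59 to 2.35, adjusted p = 0.0607 in limma). Its size depended on single pituitary tumors, with 2.08 without tumor 7 (adjusted p = 0.00366), 0.81 without tumor 6 (adjusted p = 0.285) and 1.51 without tumor 8 (adjusted p = 0.193). With pituitary tumors 6 and 8 both left out it was 0.24 and did not pass. Both chains of the pair were therefore lowest in pituitary tumor 6, intermediate in pituitary tumor 8 and highest, among pituitary tumors, in tumor 7.

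**Figure D2:**
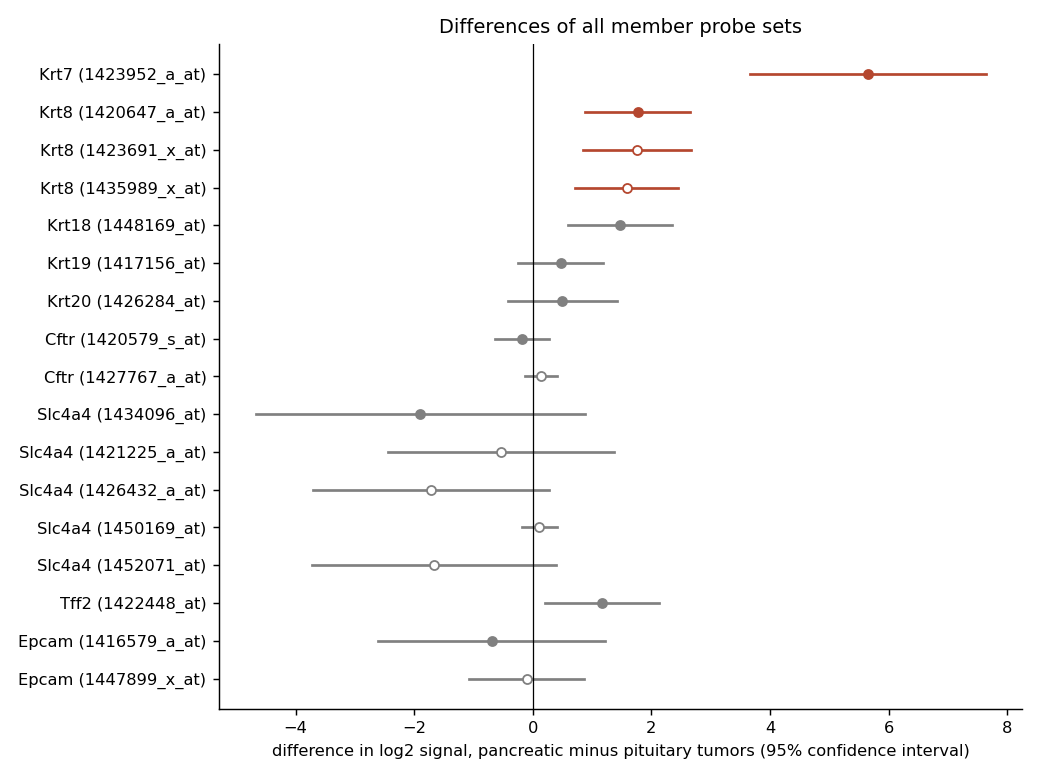
Difference in log2 signal, pancreatic minus pituitary tumors, for all 17 member probe sets with 95% confidence intervals from limma (9 and 3 tumors). Filled symbols represent the gene in the text, open symbols are its other probe sets, and red marks the 4 probe sets past an adjusted p of 0.05, which are those of Krt7 and Krt8.

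The other 2 keratins of the set had low signals. Krt19, the type I keratin commonly used to mark pancreatic ducts, was at or below the array median in 7 of 9 pancreatic tumors and in 3 of 3 pituitary tumors. Its signal in pancreatic tumors had a minimum of 4.59, a median of 4.97 and a maximum of 6.46, and pituitary tumors 6, 7 and 8 had 4.87, 4.61 and 4.52. Pancreatic tumor 10 was the highest, tumor 2 followed at 5.62, and the groups overlapped. The difference of 0.47 (95% confidence interval -0.25 to 1.19) did not pass the test (adjusted p = 0.468 in limma), and it was 0.30 without pancreatic tumor 10 (adjusted p = 0.469).

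Genes of mesothelium, the keratin-rich lining of the abdominal cavity, had their highest summed signal in the same tumor as Krt19. The summed signal of 5 mesothelium genes was 9.26 in pancreatic tumor 10 and 8.02 in pancreatic tumor 2, against 7.05 to 7.70 in the other pancreatic tumors and 6.98 to 7.37 in pituitary tumors. In pancreatic tumor 10, Upk3b was at 7.91, Wt1 at 6.55 and Lrrn4 at 6.53, above every other tumor, as was Msln at 6.54, whereas Upk1b was highest in pancreatic tumor 2, at 6.56 against 6.52 in tumor 10. Of the 5 genes, 0 passed limma's test between tumor sites, with or without adjustment. Pancreatic tumor 10 also had the highest summed signal of macrophage and leukocyte genes, 13.16 against at most 12.37 in any other tumor. The same held for islet and neuroendocrine genes, 17.06 against at most 16.96. The remaining lists peaked in other tumors. The part of any of these cell types in the Krt19 signal was not tested.

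Krt20, the intestinal type I keratin, was at or below the array median in 8 of 9 pancreatic tumors and in 3 of 3 pituitary tumors. It had a minimum of 4.06, a median of 4.25 and a maximum of 6.40 in pancreatic tumors, and 4.13, 4.21 and 3.91 in pituitary tumors 6, 7 and 8. Pancreatic tumor 11 stood above all others and tumor 12 followed at 5.12, with the remaining 7 pancreatic tumors between 4.06 and 4.56. The difference was 0.49 (95% confidence interval -0.42 to 1.41, adjusted p = 0.557 in limma), and 0.27 without pancreatic tumor 11 (adjusted p = 0.553). Genes of gastric and intestinal epithelium did not peak in pancreatic tumor 11 as a sum. Their summed signal was 10.81 there, 10.75 in tumor 12, 12.94 in tumor 2 and 9.86 to 10.84 in the other 6 pancreatic tumors. In pituitary tumors it was 8.97 to 9.47. Tff3 and Fabp2 were highest in tumor 2, at 12.49 and 10.37, whereas Lgals4 and Muc2 were highest in tumor 11, at 7.32 and 5.19. Muc5ac and Gkn1 were highest in tumor 12, and Cdx2, Tff1 and Gkn2 in other pancreatic tumors. Within that list Vil1 (villin, a protein of the brush border) was highest in pancreatic tumors 11 and 12, at 8.36 and 8.02, against 5.23 to 6.90 in the other pancreatic tumors and 3.69 to 4.01 in pituitary tumors. It was the 1 gene of the 10 measured in the list that was higher in pancreatic tumors (2.91, adjusted p = 0.00765 in limma), and 0 were lower. The Vil1 call was lost without pituitary tumor 6 (2.84, adjusted p = 0.0504) and without both pituitary tumors 6 and 8 (2.75, adjusted p = 0.376).

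Keratins outside the set did not pass the test. Of 14 other keratins measured, 0 were higher and 0 lower in pancreatic tumors, or 3 and 0 at an unadjusted p under 0.05 in limma, 6 were at or below the array median in all 12 tumors, and the median difference was 0.19. The 12 non-keratin intermediate filament genes gave 0 higher and 0 lower, or 1 and 2 at an unadjusted p under 0.05, with a median difference of -0.03. Vim, which encodes the vimentin of mesenchymal cells, was at 9.47 to 11.90 in pancreatic tumors and at 9.62 to 10.99 in pituitary tumors, with a difference of 0.32 (adjusted p = 0.756 in limma).

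Genes of duct secretion showed no common direction. Cftr, the apical chloride channel of duct cells, was at or below the array median in all 12 tumors with both of its probe sets. The first had 2.76 to 3.55 in pancreatic tumors with a median of 3.02, and 2.97, 3.79 and 3.00 in pituitary tumors 6, 7 and 8. These low signals overlapped, and the differences of -0.18 (95% confidence interval -0.64 to 0.27, adjusted p = 0.665) and 0.14 (adjusted p = 0.591) did not pass limma's test.

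Slc4a4, the sodium bicarbonate cotransporter of duct cells that is also abundant in astrocytes, varied widely within both groups and, among pituitary tumors, more than any other member. Signals of its first probe set in pancreatic tumors ran from 5.08 to 9.89 with a median of 6.73, and pituitary tumors 6, 7 and 8 had 10.00, 4.65 and 11.47. Pituitary tumor 7 was thus the lowest and pituitary tumors 6 and 8 the highest of all 12, and pancreatic tumor 2 at 9.89 came next to the high ones. The difference of -1.90 (SE 1.28, 95% confidence interval -4.67 to 0.88) did not pass (adjusted p = 0.444 in limma), and it was -3.92 without pituitary tumor 7 (adjusted p = 0.053), -1.25 without tumor 6 (adjusted p = 0.746) and -0.52 without tumor 8 (adjusted p = 0.917). The other 4 probe sets gave -1.72, -1.67, -0.54 and 0.11, of which the last was at or below the array median in all 12 tumors. The order of tumors differed between probe sets. Pancreatic tumor 2 was the highest of all in the probe set with -0.54, at 9.63. In those with -1.72 and -1.67 it lay between pituitary tumors 6 and 8, at 9.25 and 8.84. Pituitary tumor 7 was not the lowest in the probe sets with -1.72 and -0.54.

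Astrocyte genes were high in the same pituitary tumors. Their summed signal over 8 genes was 15.16, 11.27 and 15.43 in pituitary tumors 6, 7 and 8. In pancreatic tumors it was 9.39 to 12.47, with the highest value in tumor 2. Aldh1l1 was at 12.17, 8.40 and 8.79 in pancreatic tumors 2, 3 and 4, against 4.25 to 5.54 in the other pancreatic tumors. The summed signal of hepatocyte genes was highest in the same pancreatic tumors, at 17.14, 14.59 and 14.90. Slc1a2, Aqp4 and Gfap were also highest in tumor 2 among pancreatic tumors, at 7.14, 7.61 and 6.32. Slc1a3, S100b, Gja1 and Aldoc were not. Of the 8 genes, 0 were higher and 5 lower in pancreatic tumors. Slc1a3, a glutamate transporter of astrocytes, was at 3.65 to 4.43 in pancreatic tumors and at 11.80, 5.07 and 12.51 in pituitary tumors 6, 7 and 8, and Slc1a2, another, was at 3.80 to 7.14 in pancreatic tumors and at 13.23, 9.26 and 11.63 in these pituitary tumors. The parts of astrocytes and of liver tissue in the Slc4a4 signal were not tested.

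Tff2, which encodes a trefoil peptide of gastric mucus and pancreas, was higher in all pancreatic tumors without passing the test. It had a minimum of 6.01, a median of 6.46 and a maximum of 8.41 in pancreatic tumors, and 5.49, 5.69 and 5.41 in pituitary tumors 6, 7 and 8. Pancreatic tumors 3 and 4 were the high ones at 8.41 and 7.54, the other 7 lay between 6.01 and 6.74, and the groups did not overlap. Mean signal was 6.69 ± 0.79 in pancreatic tumors (SD, n = 9) and 5.53 ± 0.14 in pituitary tumors (SD, n = 3), a difference of 1.16 (SE 0.44, 95% confidence interval 0.20 to 2.12, adjusted p = 0.167 in limma). Without pancreatic tumors 2, 3 and 4 it was 0.77 (adjusted p = 0.0565).

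Acinar genes, most of which encode digestive enzymes of the exocrine pancreas, had their highest summed signal in the same 2 pancreatic tumors as Tff2. The summed signal of 13 acinar genes was 15.90 and 15.05 in pancreatic tumors 3 and 4, 10.57 to 13.21 in the other 7 and 10.04 to 10.36 in pituitary tumors. Cpb1 (carboxypeptidase B) was at 13.22 and 12.34 in pancreatic tumors 3 and 4, at 4.15 to 9.36 in the other pancreatic tumors and at 3.37 to 3.93 in pituitary tumors. Of the 13 genes, 1 was higher in pancreatic tumors, Cela1 (3.91, adjusted p = 0.00152 in limma), and 0 were lower. Cela1 did not set these tumors apart, at 12.26 and 11.33 in tumors 3 and 4 and 9.72 to 12.19 in the other 7. Bhlha15 was highest in pancreatic tumor 5 and Rbpjl in pancreatic tumor 12. The part of exocrine tissue in the Tff2 signal was not tested.

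**Figure D3:**
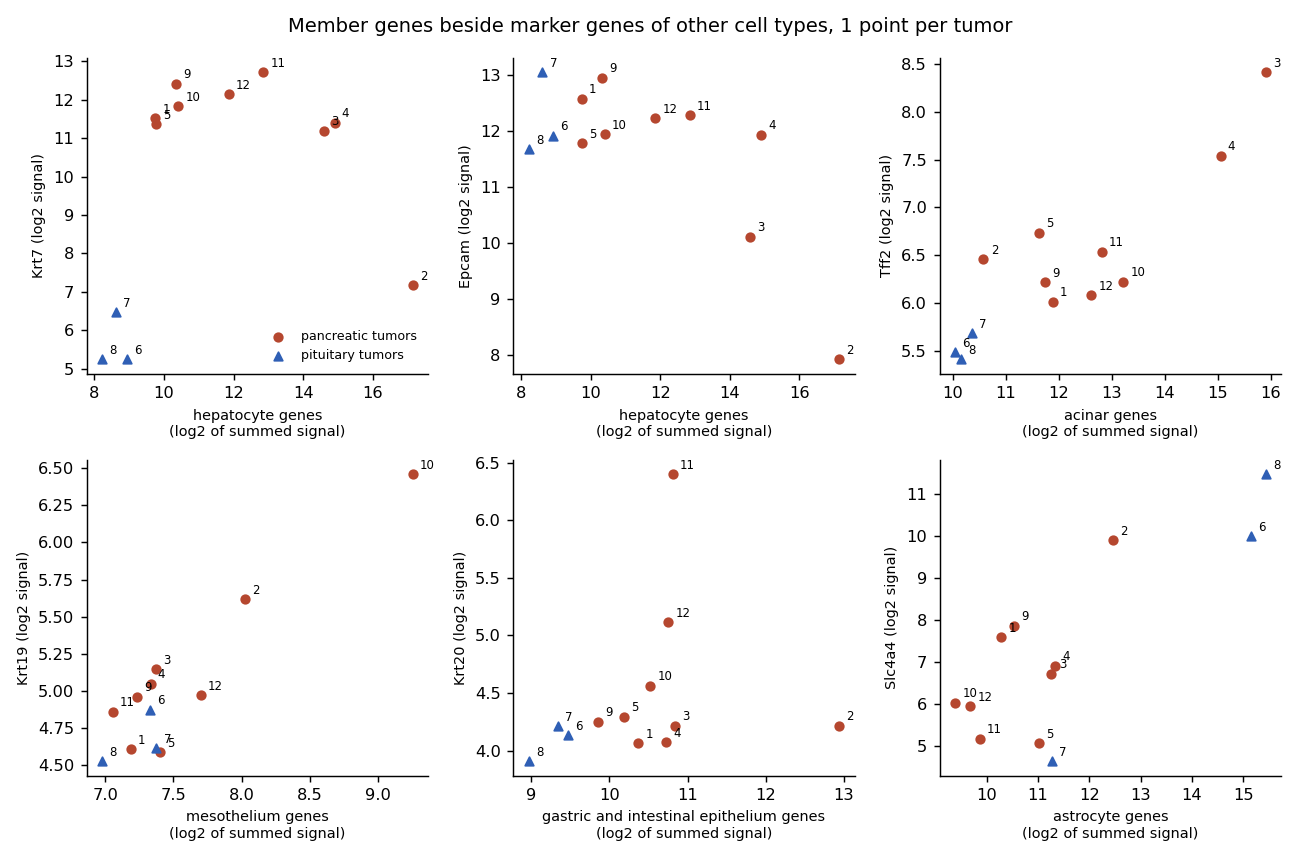
Log2 signal of member genes against the log2 of the summed signal of marker genes of another cell type, with 1 point per tumor. Pancreatic tumors are circles and pituitary tumors are triangles. Pancreatic tumor 2 has the highest hepatocyte signal (17.14) and the lowest pancreatic Krt7 and Epcam. Pancreatic tumors 3 and 4 are highest for acinar genes and Tff2, and pancreatic tumor 10 for mesothelium genes and Krt19. Pituitary tumors 6 and 8 are highest for astrocyte genes and for the first probe set of Slc4a4. Krt20 is highest in pancreatic tumor 11, whereas the summed signal of gastric and intestinal genes is highest in pancreatic tumor 2.

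Epcam, the adhesion molecule of most epithelia, was high at both sites. Its first probe set had a minimum of 7.91, a median of 11.94 and a maximum of 12.96 in pancreatic tumors, and 11.92, 13.06 and 11.68 in pituitary tumors 6, 7 and 8. Pancreatic tumor 2 at 7.91 and tumor 3 at 10.11 were below every pituitary tumor, while the other 7 pancreatic tumors lay among them. Mean signal was 11.53 ± 1.57 in pancreatic tumors (SD, n = 9) and 12.22 ± 0.74 in pituitary tumors (SD, n = 3), with a difference of -0.69 (95% confidence interval -2.60 to 1.22, adjusted p = 0.705 in limma). It was -0.24 without pancreatic tumor 2 (adjusted p = 0.826) and -0.27 without pituitary tumor 7 (adjusted p = 0.917), and the second probe set gave -0.10 (adjusted p = 0.921).

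Hepatocyte genes were highest in pancreatic tumors 2, 3 and 4, of which tumors 2 and 3 had the lowest Epcam. Alb (albumin) was at 15.01 in pancreatic tumor 2, at 13.42 in tumor 3 and at 13.65 in tumor 4, at 6.22 to 12.28 in the other 6 pancreatic tumors and at 5.28 to 7.06 in pituitary tumors. Fgb (fibrinogen) was at 14.32 in pancreatic tumor 2, at 10.98 and 11.53 in tumors 3 and 4, at 4.41 to 8.60 in the other 6 and at 4.23 to 5.08 in pituitary tumors. Of 8 hepatocyte genes, 0 passed limma's test between sites, and 3 were higher in pancreatic tumors at an unadjusted p under 0.05. In pancreatic tumor 2, Krt8 at 12.54 was the highest and Krt18 at 12.41 the second highest of the pancreatic tumors, while Krt7 and Epcam were the lowest. The part of liver tissue in these values was not tested.

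Members were also compared with each other over the 9 pancreatic tumors in 36 pairs by exact two-sided permutation of pairings. In these tests 0 pairs passed after adjustment over the 36 pairs, and 2 had an unadjusted p under 0.05. The highest correlation was that of Krt7 and Epcam (Pearson's r = 0.919, exact p = 0.00235, adjusted p = 0.0845, and Spearman's rho = 0.867, exact p = 0.00451, adjusted p = 0.162). It was r = 0.705 without the 2 tumors farthest from the median of Krt7 and r = 0.623 without pancreatic tumor 2 alone. Krt8 and Krt18, the chains of 1 filament, had r = 0.546 and rho = 0.4 (exact p = 0.128 for r, adjusted p = 0.778), over a range of only about 1 log2 unit for each. Krt7 and Slc4a4 ran in opposite directions (r = -0.755, exact p = 0.0411, adjusted p = 0.74, rho = -0.283), and without pancreatic tumor 2 their r was -0.137.

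For 5 members whose signal spanned at least 2 log2 units over the pancreatic tumors, the 3 genes with the most similar profile were sought among 5288 genes of at least the same span, as a description over 9 tumors that share tumor 2. Krt7 was most like Npdc1 (r = 0.990), Cdr2 (r = 0.987) and Kcnk1 (r = 0.984), which were at r = 0.909, 0.918 and 0.849 without tumor 2. Epcam was most like Esrp1 (r = 0.995), a splicing regulator of epithelial cells, then Dner (r = 0.985) and Gap43 (r = 0.982), and Esrp1 was still at r = 0.982 without tumor 2. The leading genes were Fxyd2 (r = 0.982) for Krt20, Nit1 (r = 0.975) for Slc4a4 and Reg3d (r = 0.964) for Tff2, with r = 0.987, 0.968 and 0.964 without tumor 2. For Krt20 and Tff2 this is no check, because tumor 2 was at neither end of their range. Krt20 was highest in tumor 11 and Tff2 in tumors 3 and 4.

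Further genes of ducts and of epithelial junctions were counted in the same way. Of 9 genes that regulate duct cells, 1 was higher in pancreatic tumors and 0 were lower, with a median difference of 0.18. Prom1 (prominin, a protein of apical membrane protrusions) was at 8.38 to 12.54 in pancreatic tumors and at 7.45, 6.18 and 8.12 in pituitary tumors 6, 7 and 8, which did not overlap (difference 2.99, SE 0.72, adjusted p = 0.0349 in limma). Its call was lost when pancreatic tumor 1, 4, 11 or 12 or any single pituitary tumor was left out, with differences of 2.46 to 3.43 and adjusted p of 0.0503 to 0.131.

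Of 13 genes of duct secretion and surface, 1 was higher, 1 was lower and the median difference was 0.16. Aqp1, a water channel, was at 7.11 to 9.62 in pancreatic tumors and at 4.94, 6.11 and 7.26 in pituitary tumors 6, 7 and 8, so that pituitary tumor 8 overlapped (difference 2.16, SE 0.56, adjusted p = 0.0497 in limma). This call was kept only without pancreatic tumor 2 or pituitary tumor 8 and was lost without any other single tumor, with differences of 1.58 to 2.25 and adjusted p of 0.058 to 0.268. Car2, a carbonic anhydrase of duct cells and also of oligodendrocytes, was at 5.65 to 9.36 in pancreatic tumors and at 11.45, 8.94 and 11.28 in pituitary tumors 6, 7 and 8, so that pancreatic tumor 3 overlapped with pituitary tumor 7 (difference -3.37, SE 0.79, adjusted p = 0.0319 in limma). Its call was lost without pituitary tumor 6 (-2.93, adjusted p = 0.18) or 8 (-3.01, adjusted p = 0.17) and without pancreatic tumor 9, 10 or 12 (-3.29, -3.30 and -3.27, adjusted p of 0.0506 to 0.0595). The summed signal of the neuron and oligodendrocyte genes given above was highest in the same pituitary tumors, 6 and 8. Among them Olig1, Mog and Mag were higher in these tumors than in pituitary tumor 7. Mbp was not, at 8.97, 9.26 and 8.50 in pituitary tumors 6, 7 and 8.

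Of 25 genes of epithelial junctions and their regulators, 2 were higher, 0 were lower and the median difference was 0.53. Cdh1, which encodes the E-cadherin of adherens junctions, was at 9.10 to 12.16 in pancreatic tumors and at 7.00, 7.13 and 6.96 in pituitary tumors 6, 7 and 8. The groups were far apart, with a difference of 3.96 (SE 0.51, adjusted p = 0.00083 in limma), and the call was kept whichever single tumor was left out. Marveld3, a tight junction protein, was at 5.94 to 8.66 in pancreatic tumors and at 4.50, 6.03 and 4.54 in pituitary tumors 6, 7 and 8, with a small overlap between pancreatic tumor 2 and pituitary tumor 7 (difference 2.51, SE 0.54, adjusted p = 0.0224 in limma). This call was lost without pituitary tumor 6 (2.24, adjusted p = 0.138) or 8 (2.27, adjusted p = 0.129).

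**Figure D4:**
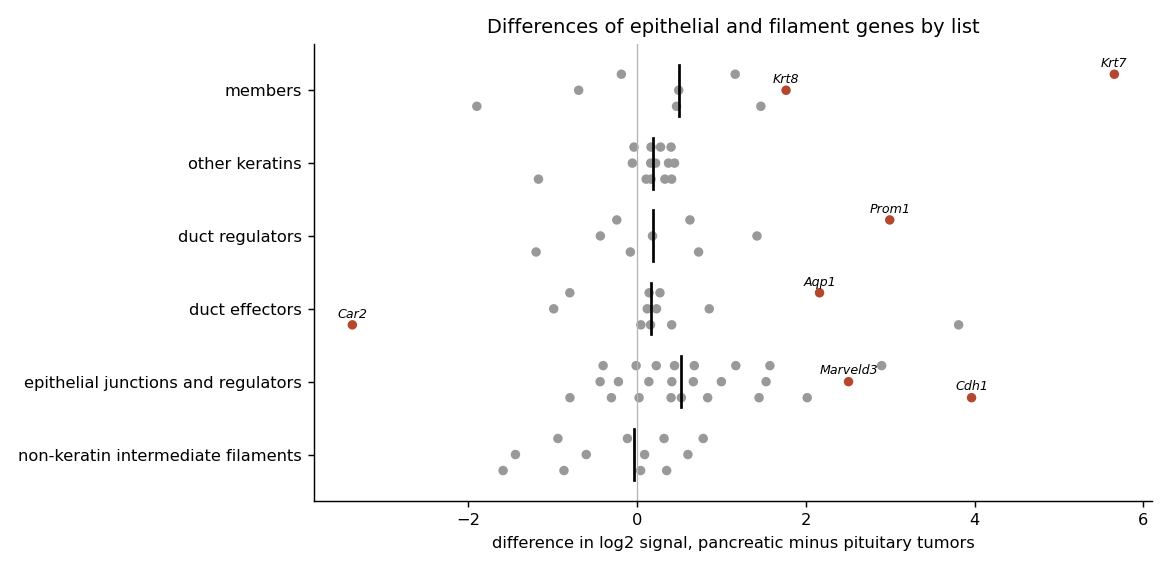
Difference in log2 signal, pancreatic minus pituitary tumors, for each measured gene of 6 lists, with 1 point per gene and the list's median as a vertical bar. Red named points passed an adjusted p of 0.05 in limma, which were Krt7 and Krt8 among the members, Prom1, Aqp1 and Car2 among duct genes and Cdh1 and Marveld3 among junction genes, while 0 genes passed in the 2 lists of other keratins and non-keratin filaments.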

How the data were processed

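Each of the 12 tumors was profiled on an Affymetrix MG-430_2.0 array. The values the authors deposited are log2 signals of probe sets after normalization across arrays. Partek Genomics Suite is named for normalization (its release was not given in the sources used here). RMA is named for a further analysis, and which of them made these values is not stated. No further scaling was applied. Precision is limited by the number of arrays.

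Of 45101 probe sets, 64 controls were left out. In the platform annotation 34945 of 45037 probe sets carry 1 symbol, 932 several and 9160 none. For each of 18193 genes, the probe set with that symbol alone and the highest mean of both group means was taken. Sites were compared with lmFit and eBayes of limma 3.58.1 (R 4.3.3), with Benjamini-Hochberg adjustment over all 45037 probe sets and a threshold of 0.05, after a check on simulated data. Correlations, Dixon's test, promoters and figures were made in Python 3.11.15 (scipy 1.17.1, numpy 2.4.6, matplotlib 3.10.9, pandas 2.3.3). Promoters came from RefSeq (GRCm38.p6).

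The members and the 15 other lists (180 different genes, 164 measured) were chosen with earlier results of these data known. The rule for named genes allowed all members, up to 4 genes per list by adjusted p or else up to 2 by signal, up to 3 marker genes by range, and the 3 genes most like a member. The list genes described, and the 26 of them tested for a tumor that stands apart, were picked from these after their values were seen. The alternatives left out tumors singly or in groups, scaled the arrays by quantiles or by their medians, weighted arrays, used a trended robust variance or no moderation, dropped probe sets below the median mean signal, asked for a log2 difference over 1, or averaged the probe sets of a gene.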

Additional observations from a re-analysis of the deposited data

Results flagged for a closer look

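Within the 9 pancreatic tumors, a tumor was marked for a closer look where its gap to the nearest other tumor exceeded Dixon's critical value of 0.493 of the group's range, which chance alone exceeds in about 5% of groups. This was applied to 17 member probe sets, of which 3 had such a tumor, and to 26 other named genes. Because those other genes were picked after their values were seen, some of them for their range over the tumors, their marks describe that choice and are not to be read against the chance rate.

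Among members, Krt7 was at 7.17 in pancreatic tumor 2, below the other pancreatic tumors. Krt20 was at 6.40 in pancreatic tumor 11, above the others. Of the 5 probe sets of Slc4a4, 1 was at 8.84 in pancreatic tumor 2, above the others, and the other 4 did not meet the criterion.

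Among the other genes, pancreatic tumor 2 was lowest for Sst (somatostatin) at 13.65 and highest for Slc1a2 at 7.14 and Aqp4, a water channel of astrocytes, at 7.61. Pancreatic tumor 10 was highest for the mesothelium genes Upk3b at 7.91, Wt1 at 6.55 and Lrrn4 at 6.53. Prl (prolactin) was at 8.22 in pancreatic tumor 5, above the other pancreatic tumors, against 14.10 to 15.10 in pituitary tumors.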

How the results depend on the processing

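Numbers of calls changed more with the choice of tumors than with the scaling. The 4 member probe sets higher in pancreatic tumors were 1 in an unmoderated test, 1 without pancreatic tumors 2, 3 and 4, 1 without pancreatic tumors 10, 11 and 12, 0 without pituitary tumors 6 and 8, and 1 to 5 when 1 tumor was left out, with 2 without pancreatic tumor 3 or 4 and 1 without pancreatic tumor 11 or 12 or pituitary tumor 6 or 8. Lower member probe sets numbered 0 and were 0 to 1 with 1 tumor left out, the 1 being of Slc4a4 without pituitary tumor 7. Of all probe sets, the 533 higher ones were 1849 with array weights, 214 without pancreatic tumors 10, 11 and 12, 61 without pituitary tumors 6 and 8 and 172 to 886 with 1 tumor left out, the ends being without pituitary tumor 6 and without pancreatic tumor 2. The 1552 lower ones were 3179 with array weights, 967 in an unmoderated test, 926 with the filter at the median probe set, 571 without pancreatic tumors 10, 11 and 12, 488 without pituitary tumors 6 and 8 and 656 to 2000 with 1 tumor left out, the low end being without pituitary tumor 6. Called pairs of members numbered 0 and were 0 to 1 with 1 tumor left out, the 1 without pancreatic tumor 1.

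For the members' differences, 180 values over all alternatives kept their sign and side of the threshold, 9 fell short of it, 3 newly passed it and 3 turned in sign. These 3 were Cftr without pituitary tumor 7 (0.082, with -0.33 to 0.082 over single tumors left out), Slc4a4 without pituitary tumors 6 and 8 (2.16) and Epcam without pancreatic tumors 2, 3 and 4 (0.080). Vim, which is no member, turned without pituitary tumor 7 (-0.074, with -0.074 to 0.61). None of these 4 differences had passed the test. Krt8 was not called in an unmoderated test (adjusted p = 0.0588), without pancreatic tumors 2, 3 and 4 (1.70, adjusted p = 0.085), without pancreatic tumors 10, 11 and 12 (1.74, adjusted p = 0.125) or without pituitary tumors 6 and 8 (0.74, adjusted p = 0.773). Krt18 was called with array weights (1.87, adjusted p = 0.0111), without pituitary tumor 7 and with the mean of each gene's probe sets (1.47, adjusted p = 0.0473). Krt18 has a single probe set, so averaging left its values and difference unchanged. That fit tested genes in place of probe sets, which changed the adjustment. Krt7 was called in every setting but that without pituitary tumors 6 and 8. Quantile normalization and median centring each shifted the differences of all probe sets by a median of 0.04. The causes were not tested.

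No paired analysis was possible because the tumor numbers are not shared between the sites. With 3 pituitary tumors, small differences could not be resolved.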

Other observations

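Krt12, a keratin of corneal epithelium that was picked out after its values were seen, was at 3.19 to 3.86 in the 9 pancreatic tumors and at 7.31, 3.01 and 3.68 in pituitary tumors 6, 7 and 8. The difference between sites was -1.17 (adjusted p = 0.353) and did not pass limma's test. The high signal was seen on 1 array and has no replicate check.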
